A study of Mus musculus with 24 samples.

Results

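The 85 genes described here encode the proteins of the cytosolic ribosome. They were chosen by name: protein-coding genes of the GENCODE M21 annotation whose symbol is Rpl or Rps followed by a digit, with Rplp0, Rplp1, Rplp2 and Rpsa, and without the Rps6k kinases, Rps19bp genes and symbols holding -ps. The rule uses no measured value, but the set was chosen with earlier results of these data known. All 85 were among the 55487 genes of the files. They comprised 32 genes of the small subunit, 43 of the large subunit, 3 of the stalk and 7 paralogues, which are further genes for a protein that another gene of the set also encodes in a related form.

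RNA sequencing compared oocytes and embryos of Nlrp14 knockout (KO) mice with those of wild-type (WT) mice at 4 stages, with 3 libraries per genotype and stage, labelled as biological replicates, and 24 libraries in all. Each library was made from 5 oocytes or embryos. The KO groups were KO germinal vesicle (GV) oocytes, KO metaphase II (MII) oocytes, KO zygotes at the late pronuclear stage PN5 and KO 2-cell embryos, and each had a WT group of the same stage. NLRP14 is an oocyte protein with an NLR architecture. The labels give the genotype as a knockout without the allele, and strain, age and sire genotype are not stated in the labels.

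The level of each gene is in FPKM, a fragment count corrected for transcript length and sequencing depth, as the authors deposited it. Depth read back from the values lay between 7.64 and 12.3 (in units of 1e6 fragments) per library. Nlrp14 itself stood at 22.2, 23.7 and 39.2 FPKM in the KO GV libraries and at 1876, 2014 and 1922 FPKM in the WT GV libraries, and it was lower in KO at every stage, with log2 differences of -6.09 in GV oocytes, -4.26 in MII oocytes, -4.76 in zygotes and -2.01 in 2-cell embryos and limma adjusted p between 9.5e-05 and 0.00082. All 12 oocyte markers reached 1 FPKM in every GV library. Of 20 granulosa and cumulus markers, 15 were under 1 FPKM in every KO GV library and 15 in every WT GV library. All 10 markers of the 2-cell embryo reached 1 FPKM in every KO and every WT 2-cell library.

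A growing mouse oocyte makes and stores ribosomes and mRNA, then falls silent in transcription before it matures. During maturation much of the stored mRNA is shortened at its tail and degraded, and the embryo takes over with its own transcription at the 2-cell stage. In most cell types ribosomal protein mRNAs start with a terminal oligopyrimidine (TOP) tract, a C followed by a run of C and T, through which mTOR signalling and the protein LARP1 set their translation and their stability together. The SMART-Seq HT kit copies mRNA from its poly(A) tail, so a level here is that of mRNA captured through its tail.

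The start of the transcript is shown because it carries the element by which these mRNAs are known. RefSeq (GRCm38.p6) start windows were matched for 65 of the 85 genes by symbol, and 20 had no match. A tract was counted where a C within 5 bases of the annotated start was followed by at least 4 C or T, on the gene's strand only. By that definition 30 of the 65 genes (46.2%) held a tract at one or more of their starts, against 21.2% of all 27025 genes with a window and 21.8% of the protein-coding ones. Annotated starts were not checked against the starts used in these cells. A gene counted here as without a tract may therefore still have an mRNA that starts with one. Each window below runs from 10 bases before the annotated start to 20 bases from it on, 5′ to 3′ on the gene's strand, with the tract in capitals. The first 7 lines are genes with a tract and the last 4 are genes with no such tract starting within 5 bases of the start.
Rpl15, chr14:18270967-18270996, minus strand: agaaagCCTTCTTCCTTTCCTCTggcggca
Rplp2, chr7:141447641-141447670, plus strand: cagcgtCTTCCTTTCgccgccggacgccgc
Rps6, chr4:86857348-86857377, minus strand: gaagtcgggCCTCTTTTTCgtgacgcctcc
Rpl38, chr11:114668570-114668599, plus strand: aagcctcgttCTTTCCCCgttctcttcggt
Rps27, chr3:90213629-90213658, minus strand: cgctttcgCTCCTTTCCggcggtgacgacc
Rps27rt, chr9:114982720-114982749, minus strand: ttatcccttgCTTTCCggcggtgacgacct
Rps27l, chr9:66946076-66946105, plus strand: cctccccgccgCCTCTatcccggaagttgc
Rplp0, chr5:115559457-115559486, plus strand: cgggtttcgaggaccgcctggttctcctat
Rps3, chr7:99483690-99483719, minus strand: aagggtcgccgcgctgcgcggcgtcattgc
Rpl10l, chr12:66284382-66284411, minus strand: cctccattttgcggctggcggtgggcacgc
Rpl3l, chr17:24727816-24727845, plus strand: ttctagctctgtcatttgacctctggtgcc
The windows of Rps27 and its intronless copy Rps27rt are alike downstream of the start and differ before it, and Rps27l, the third gene of that family, has a short tract at the start shown and none at its other annotated start.

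Ribosomal protein genes have many processed copies in the mouse genome, and this bears on every level below. A search of each gene's longest open reading frame against all annotated transcripts found at least 1 copy of 95% identity over 80% of the frame for 75 of the 85 genes, with a median of 4 copies and up to 57, for Rpl21. The 546 copies outside the set included 530 annotated as pseudogenes. Their summed level was 15716, 16372 and 25152 FPKM in KO GV and 16261, 14744 and 15161 FPKM in WT GV, against 2698, 2894 and 4232 FPKM in KO GV and 2849, 2675 and 2714 FPKM in WT GV for the 85 genes themselves. The copies thus held 5.51 to 5.94 times as much as the genes in every GV library. Gm14303, a pseudogene copy of Rps29 on chromosome 2, alone averaged 1090.2 ± 456 FPKM in KO GV and 805 ± 70.1 FPKM in WT GV (SD, n = 3 each). How the authors assigned fragments that match both a gene and a copy is not stated in the labels. A low deposited level of a gene with copies may therefore not be a low amount of its mRNA, and the count of each comparison over the whole set is also given with the levels of the copies added to their parent. A copy that matched more than 1 gene was added to each, so genes in these counts are not all separate signals. Rps27 and Rps27rt have the same values there and are both counted. The 10 genes for which this search found no copy include Rpl8, Rpl39, Rpl41, Rps3, Rps10 and Rps19 and the paralogues Rpl3l, Rpl39l and Rps27l. The frame searched need not be the annotated coding frame, and shorter or less similar matches were not counted. Fragments shared with other genes can therefore not be excluded for these 10.

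**Figure D1:**
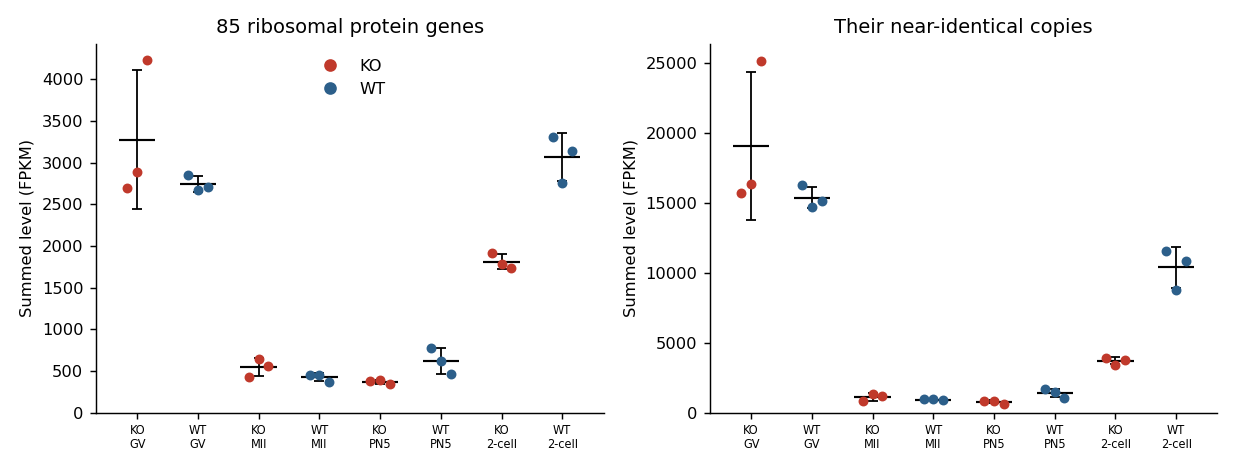
Summed level in FPKM of the 85 ribosomal protein genes (left) and of their 546 near-identical copies (right) in each of the 24 libraries. Points are libraries (KO red, WT blue), horizontal lines are group means and bars are SD (n = 3). Both sums are high at GV, low at MII and PN5 and high again at 2-cell, where all 3 KO libraries lie below all 3 WT libraries.

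The set was high in GV oocytes, low in MII oocytes and PN5 zygotes, and high again in 2-cell embryos, in KO as in WT. In KO the summed level of the 85 genes averaged 3275 ± 835 FPKM in GV oocytes, 543 ± 108 in MII oocytes, 370.4 ± 22.2 in PN5 zygotes and 1813 ± 92.9 in 2-cell embryos (SD, n = 3 each). In WT it averaged 2746 ± 91.3 FPKM in GV oocytes, 424 ± 45.5 in MII oocytes, 622 ± 156 in PN5 zygotes and 3069.7 ± 286 in 2-cell embryos (SD, n = 3 each). In samples of whole oocytes or embryos, less mRNA per cell and a smaller share of it in the mixture cannot be told apart. The set therefore kept 16.6% of its GV level at MII in KO and 15.5% in WT. Without Rps27l, which behaved differently and is described below, these shares were 7.57% in KO and 8.46% in WT. KO GV replicate 3 stood apart, with a sum of 4232 FPKM and the steepest excess of short genes over long ones of the 24 libraries.

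**Figure D2:**
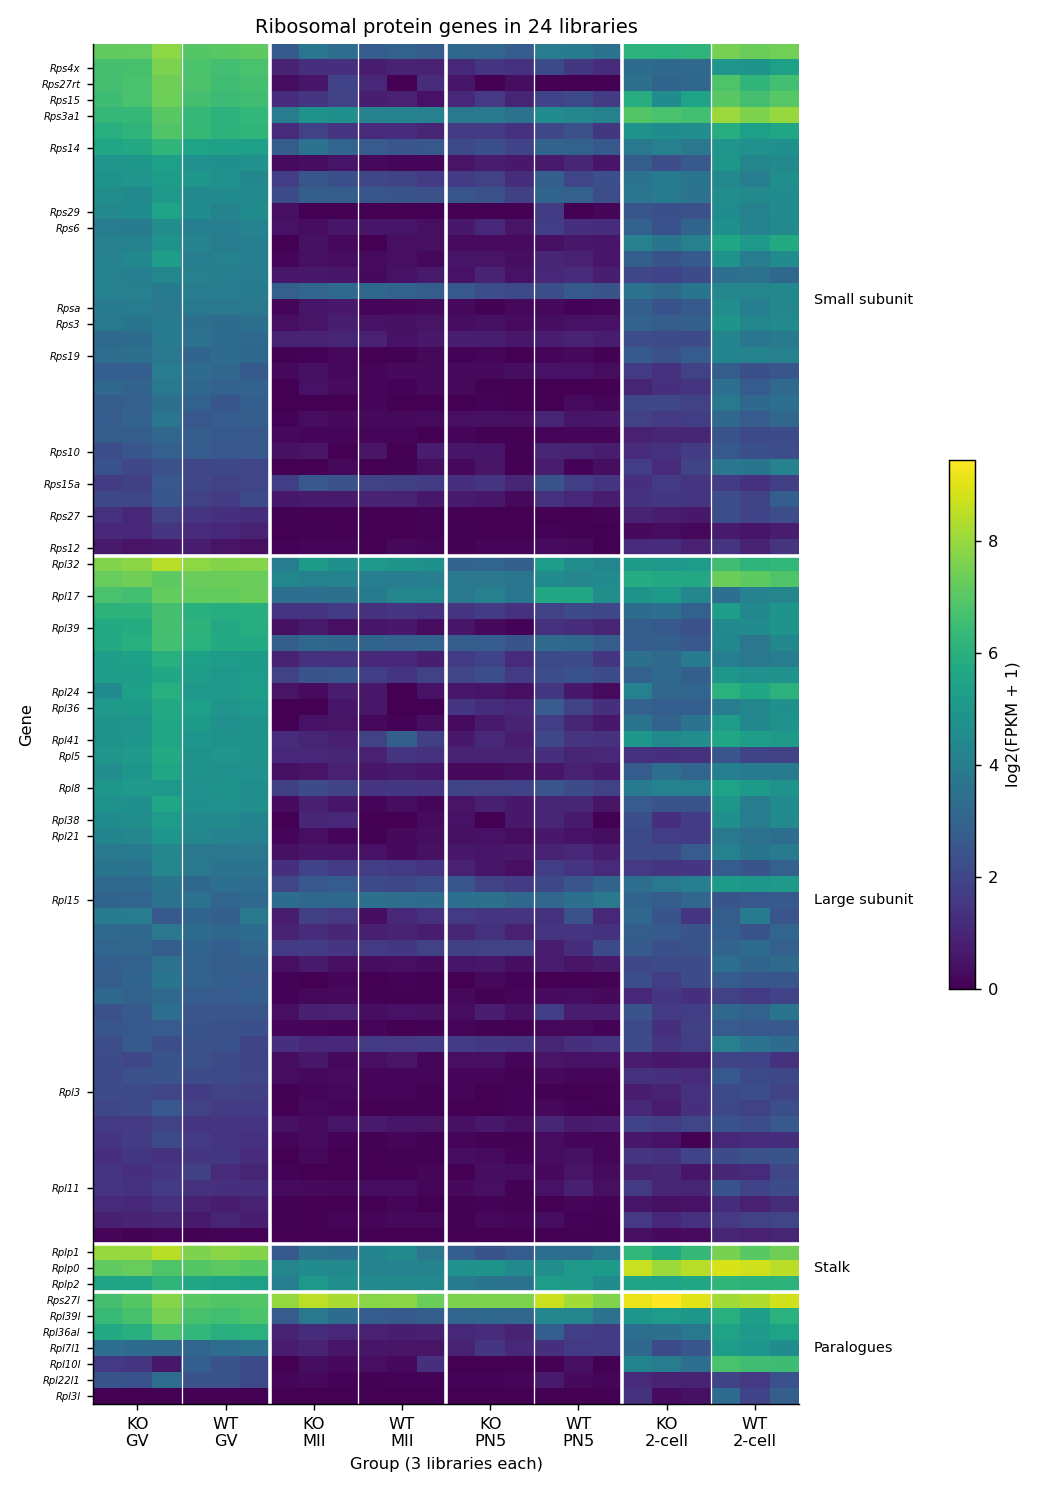
Level of each of the 85 genes (rows) in each of the 24 libraries (columns), as log2(FPKM + 1), from 0 (dark) to above 9 (yellow). Genes are grouped by their place in the ribosome and ordered within a group by their mean in WT GV oocytes; nearly all rows are dark at MII and PN5, and Rps27l is the row that stays bright throughout. Names are printed for genes described in the text.

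Between GV and MII nearly the whole set fell. Group means were lower at MII than at GV for 81 of the 85 genes in KO and 82 in WT, and at MII the median gene stood at 2.84% of its GV level in KO and 3.52% in WT. In limma fits on log2(FPKM + 1), where a gene was tested if 3 or more libraries of the fit reached 1 FPKM and called at an adjusted p under 0.05, 77 of 80 tested genes fell and 1 rose in KO, where 48.2% of all tested genes fell and 20.8% rose. In WT 75 of 78 fell and 1 rose, where 52.8% of all tested genes fell and 31.1% rose. Most of these genes passed the filter through their GV libraries alone, since 28 to 33 of the 85 reached 1 FPKM in any MII library, so the counts of falls describe the filter too. With the copies added, 81 of 83 fell in KO and 82 of 84 in WT, where 46.6% and 51.5% of all tested genes fell.

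The fall reached each part of the ribosome. Rps3 encodes a small subunit protein at the mRNA entry channel, and no copy of it was found. It had 0.293, 0.412 and 0.727 FPKM in KO MII, against 13.1, 11.9 and 13.5 in KO GV. In WT it had 0.374, 0.326 and 0.425 FPKM at MII, against 10.2, 9.22 and 10.4 at GV, and it fell by 3.23 in KO and 2.99 in WT on the log2 scale. Rpl39, the small exit tunnel protein, for which no copy was found either, fell by 5.61 (SE 0.29, limma adjusted p = 4.3e-06) in KO and by 5.40 (SE 0.13, limma adjusted p = 2.4e-08) in WT. Rps4x, an X-linked gene of the small subunit, fell by 5.85 in both genotypes. Rps15 fell by 5.36 in KO and 5.86 in WT, and Rps27rt by 6.0 in KO and 5.94 in WT. No MII library reached 1 FPKM in Rps3 or Rpl39 in either genotype, or in Rps4x or Rps15 in WT. Only a fall could be called in these, so their calls do not stand as support. Within the stalk, the flexible arm of the large subunit that recruits elongation factors, Rplp1 fell by 4.94 in KO and 3.55 in WT, Rplp0 by 2.63 in KO and 2.78 in WT, and Rplp2 by 1.16 in KO and 0.98 in WT.

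Rps27l was the exception. It encodes a paralogue of RPS27 whose gene is a known p53 target, and no near-identical copy of it was found. Its level was 251, 364 and 304 FPKM in KO MII, against 99.9, 123 and 213 FPKM in KO GV, and 221, 227 and 159 FPKM in WT MII, against 131, 117 and 122 FPKM in WT GV. All 3 MII libraries lay above all 3 GV libraries in each genotype. It rose by 1.13 in KO (SE 0.31, limma adjusted p = 0.013) and by 0.69 in WT (SE 0.14, limma adjusted p = 0.0018). At MII it made up 56.4% of the summed level of the set in KO and 47.6% in WT. Rps15a and Rpl15 were not called at this step in either genotype. Rps15a stood at 2.36, 4.91 and 4.15 FPKM in KO MII and 2.10, 2.49 and 4.98 FPKM in KO GV. In WT it stood at 2.63, 2.45 and 2.17 FPKM at MII and 3.06, 2.51 and 2.92 FPKM at GV. With its 6 copies added Rps15a averaged 222 ± 70.9 FPKM in KO MII, 206 ± 82.6 in KO GV, 142 ± 8.57 in WT MII and 165 ± 29.5 in WT GV (SD, n = 3 each). The interaction of genotype with the step from GV to MII called 0 of 81 tested genes of the set, where 0.120% of all tested genes were called in either direction, and 0 of 84 with the copies added, where 0.124% were.

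**Figure D3:**
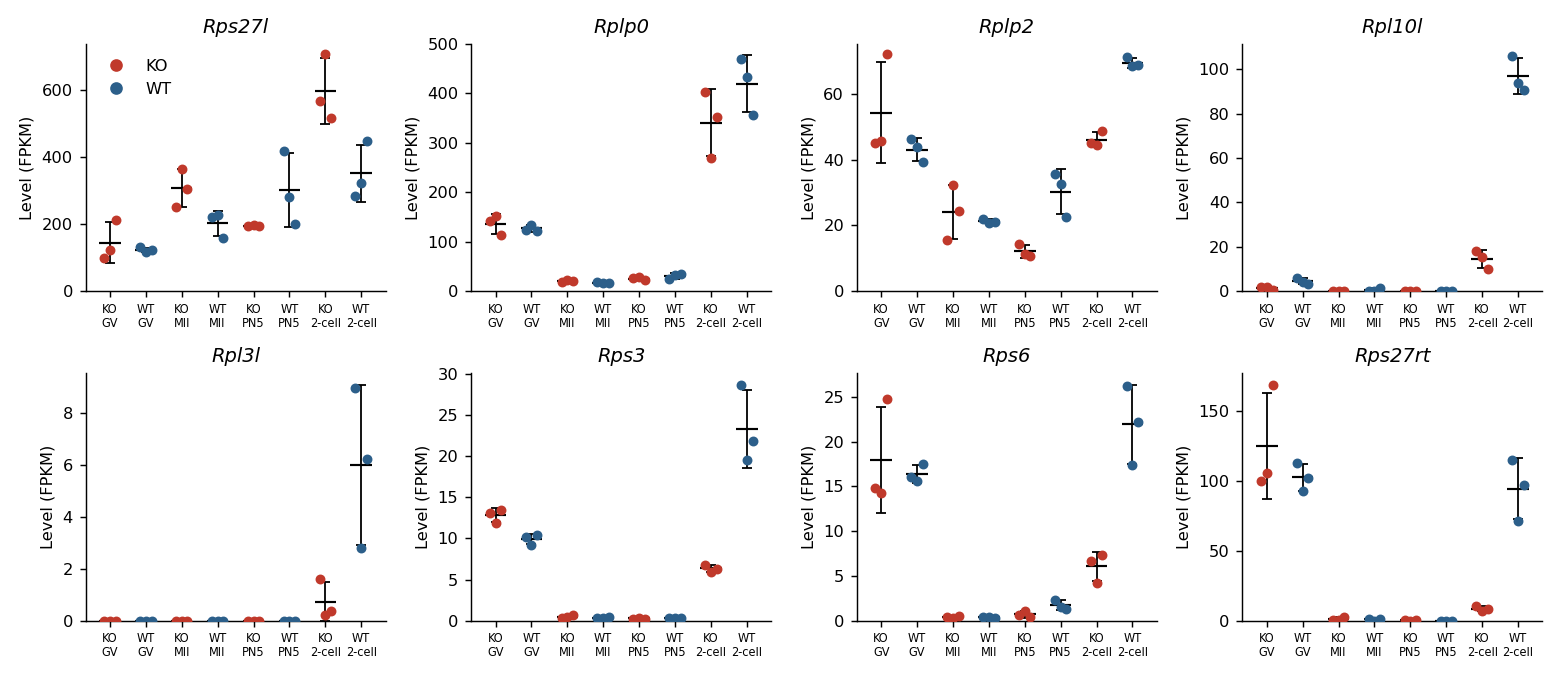
Level in FPKM of 8 genes in each library, with KO in red, WT in blue, group means as lines and SD as bars (n = 3); each panel has its own scale from 0. Rps27l is high in all 8 groups and higher in KO than in WT 2-cell embryos; Rplp0 overlaps between KO and WT at 2-cell; the other 6 are lower in every KO 2-cell library than in every WT one.

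From MII to PN5 the genotypes moved apart. In KO 9 of 33 tested genes of the set fell and 1, Rpl36, rose, where 10.4% of all tested genes fell and 22.5% rose. Rpl36 was tested only through its PN5 libraries, since no KO MII library reached 1 FPKM. Rpl34, among the falls, was tested only through its MII libraries, since no KO PN5 library reached 1 FPKM. In WT 11 of 37 rose and 0 fell, where 9.80% of all tested genes rose and 4.44% fell. Of these rises Rpl36, Rps15, Rpl36al, Rpl7l1, Rps6 and Rpl39 were tested only through their PN5 libraries. No WT MII library reached 1 FPKM in them, so only a rise could be called and these calls do not stand as support. Among the falls in KO were Rpl32 (log2 change -1.65, SE 0.28), Rps14 (-1.07, SE 0.24), Rplp2 (-0.89, SE 0.26) and Rps3a1 (-0.78, SE 0.24). Among the rises in WT were the paralogue Rpl39l (1.33, SE 0.26), Rpl17 (1.13, SE 0.30) and Rplp0 (0.76, SE 0.20). The interaction of genotype with this step called 7 of 38 genes of the set lower in KO and 0 higher, where 4.59% of all tested genes were called lower and 2.86% higher. Those with a mean of 5 FPKM or more and the largest differences were Rpl39l (-1.50, SE 0.38), Rpl32 (-1.49, SE 0.40), Rplp2 (-1.35, SE 0.35) and Rps14 (-1.32, SE 0.32). The interaction called 0 genes of the set with a pseudocount of 0.1, without the filter or in TPM. Calls at this step depend on single libraries. For the interaction 22 genes were called without WT PN5 replicate 3, 18 without KO MII replicate 1 and 0 without any other one of the 12 libraries. In KO 2 to 5 genes were called without any one library except KO MII replicate 1, without which 13 were. In WT 0 were called without MII replicate 3 or PN5 replicate 2, 1 without MII replicate 2, 2 without MII replicate 1, 5 without PN5 replicate 1 and 8 without PN5 replicate 3. Shares of all tested genes in these fits are not given here, so these counts show only how far the calls depend on single libraries. With the copies added 26 of 73 rose in WT, where 9.71% of all tested genes rose, 2 rose and 13 fell of 72 in KO, where 22.9% and 10.3% did, and the interaction called 17 lower, where 4.60% of all tested genes were.

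From PN5 to 2-cell nearly the whole set came back, in both genotypes and further in WT. Group means were higher at 2-cell for 84 of 85 genes in KO and 82 in WT. In KO 65 of 70 tested genes rose and 0 fell, where 43.8% of all tested genes rose and 26.8% fell, and the median log2 change of the tested members was 1.75. In WT 77 of 81 rose and 2 fell, where 48.0% of all tested genes rose and 14.8% fell, and the median was 2.49. With the copies added 82 of 84 rose and 1 fell in KO, where 42.9% of all tested genes rose and 27.3% fell, and 81 of 85 rose and 0 fell in WT, where 46.9% rose and 15.1% fell. As before, many genes passed the filter through the later stage. Rps3 reached 6.83, 5.96 and 6.27 FPKM in KO 2-cell embryos, against 0.229, 0.349 and 0.205 FPKM in KO PN5. In WT it reached 28.7, 19.5 and 21.9 FPKM at 2-cell, against 0.289, 0.368 and 0.374 FPKM at PN5. The WT 2-cell level of Rps3 was thus 236% of its WT GV level, and the KO 2-cell level was 49.6% of its KO GV level.

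The difference between genotypes at this step was itself called for 41 of 82 tested genes of the set, 39 with a smaller rise in KO and 2 with a larger one, where 31.9% of all tested genes were called lower and 13.8% higher. When the copies were added 39 of 85 were called lower and 1 higher, where 31.7% and 14.1% of all tested genes were. Rps27 and Rpl27, both among the 39, were tested only through their WT 2-cell libraries. Only a smaller rise could be called in them, so these calls do not stand as support. The largest smaller rises were those of Rps27rt (-3.61, SE 0.33), Rpl10l (-2.56, SE 0.32), Rpl38 (-2.47, SE 0.47) and Rpl24 (-2.18, SE 0.48). No PN5 library reached 1 FPKM in Rps27rt or Rpl10l. Their values here thus largely restate their KO minus WT differences at 2-cell (-3.31 and -2.69). Small subunit genes made up 19 of the 39, large subunit genes 17 and paralogues 3. None of the 3 stalk genes was called in this interaction, in which Rplp0 had a difference of -0.07 (SE 0.29). Rps27l (1.33, SE 0.36) and Rpl17 (2.26, SE 0.45) were the 2 genes that ran the other way. For Rpl17 that call was lost with its 22 copies added (0.61, SE 0.36, limma adjusted p = 0.19), and its fall in WT from PN5 to 2-cell (-1.33, SE 0.36) became a difference of 0.37.

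Compared stage by stage, no gene of the set was called between KO and WT at GV or MII, 4 were at PN5 and 69 at 2-cell. At GV 0 of 81 tested genes of the set were called, where 0.0430% of all tested genes were called. Among the 81, 4 had an unadjusted limma p under 0.05. The median difference of the tested members was 0.24 and that of all tested genes was -0.08. Adding the copies gave 0 of 84 called, where 0.0443% of all tested genes were, and 8 had an unadjusted p under 0.05. Shares of all tested genes with an unadjusted p under 0.05 are not given here, so neither count is read as a result about the set. The sum of the 85 genes in KO GV oocytes was 119% of that in WT, and 102% without KO GV replicate 3. Rpl10l, a paralogue of RPL10 best known from male germ cells, had the largest difference: 2.06, 1.79 and 0.530 FPKM in KO GV and 6.03, 4.41 and 3.37 FPKM in WT GV. These groups did not overlap, and the difference of -1.22 (SE 0.31) had a limma adjusted p of 0.20, or 0.047 without KO GV replicate 3.

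At MII 0 of 31 tested genes of the set were called, where 2.28% of all tested genes were called. Among the 31, 9 had an unadjusted limma p under 0.05. The median difference was 0.22 against -0.18 for all tested genes. Without KO MII replicate 1, the KO library with the lowest sum, 14 genes were called, 11 of them higher in KO. The share of all tested genes called in that fit is not given here, so the 14 are not read as a result about the set. Rpl41, the smallest ribosomal protein, had 1.22, 0.983 and 0.781 FPKM in KO MII and 2.55, 6.28 and 2.44 FPKM in WT MII, a difference of -1.17 (SE 0.29, limma adjusted p = 0.068). Rpl17 lay between 9.88 and 10.3 FPKM in KO MII and between 14.3 and 19.2 FPKM in WT MII (-0.73, SE 0.17, limma adjusted p = 0.059). Rps15 ran the other way, with 1.30, 1.81 and 2.60 FPKM in KO MII and 0.727, 0.846 and 0.389 FPKM in WT MII (0.80, SE 0.21, limma adjusted p = 0.073), and it was tested only through its KO libraries. Adding the copies gave 0 of 73 called, where 2.28% of all tested genes were, and 20 had an unadjusted p under 0.05. As at GV, the unadjusted counts have no share of all tested genes beside them and are not read as a result about the set.

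At PN5 the sum of the set in KO was 59.6% of that in WT, and 68.3% without WT PN5 replicate 1, the WT library with the highest sum. The sums were 380.3, 386 and 345 FPKM in KO and 781, 615 and 469 FPKM in WT, so the groups did not overlap. Of 36 tested genes 4 fell in KO and 0 rose, where 5.53% of all tested genes fell and 0.569% rose, and the median difference was -0.59 against 0.01 for all tested genes. Rpl32, a large subunit protein, had 7.14, 7.40 and 6.28 FPKM in KO and 36.7, 23.7 and 19.1 FPKM in WT (-1.74, SE 0.27, limma adjusted p = 0.034). Rplp2 had 14.3, 11.4 and 10.7 FPKM in KO and 35.7, 32.7 and 22.5 FPKM in WT (-1.24, SE 0.25, limma adjusted p = 0.039). Rpl17 differed by -1.46 (SE 0.31). In Rpl32, Rplp2 and Rpl17 every KO library lay below every WT library. Rpl39 (-0.89, SE 0.21) was tested only because its WT libraries passed the filter, with no KO library at 1 FPKM, so its call does not stand as support. These calls are not firm: 0 remained past the threshold without any one of the KO libraries or without WT PN5 replicate 2, 3 without WT PN5 replicate 1, and 17 were called without WT PN5 replicate 3. How many of all tested genes were called in those fits is not given here, so the 17 are not read as a result about the set. With the copies added 11 of 73 fell, where 5.40% of all tested genes fell.

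**Figure D4:**
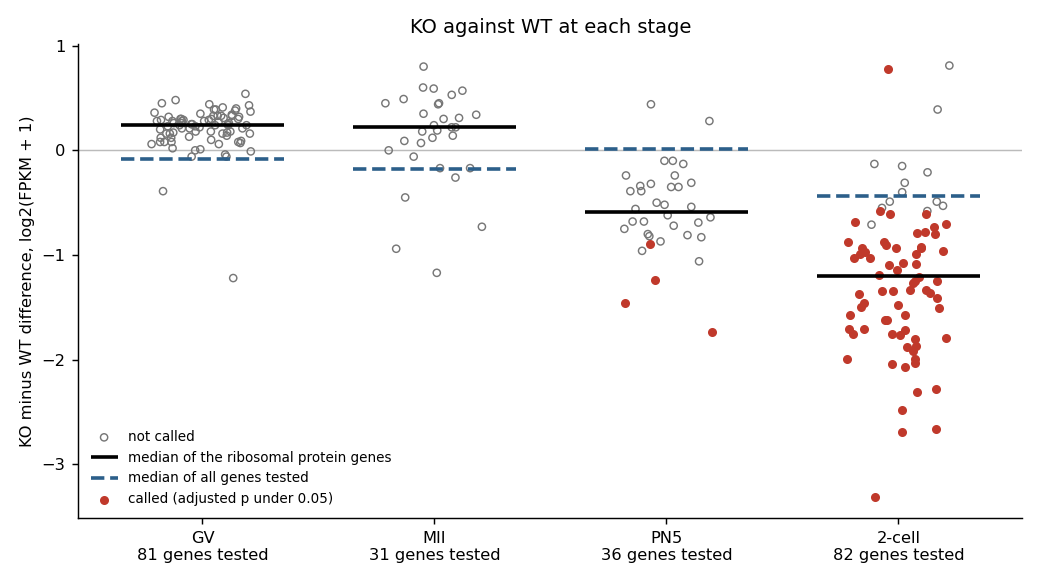
KO minus WT difference of each tested gene of the set at each stage, in log2(FPKM + 1). Filled red points passed an adjusted p under 0.05, open points did not, the black line is the median of the set and the dashed line that of all tested genes; the set lies above the dashed line at GV and MII and below it at PN5 and 2-cell.

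At 2-cell the set was broadly lower in KO. Its sum was 1916, 1789 and 1735 FPKM in KO and 3315, 2755 and 3139 FPKM in WT, 59.1% of WT with Rps27l and 44.8% without it, and 41.1% with the copies added. Of 82 tested genes 68 fell and 1 rose, where 40.3% of all tested genes fell and 14.0% rose, and the median difference was -1.20 against -0.44 for all tested genes. Rps27, Rpl27 and Rpl35a were tested only through their WT libraries, with no KO library at 1 FPKM. Only a fall could be called in them, so they do not stand as support in this or the later counts at 2-cell. Every KO library lay below every WT library for 72 of the 82 genes, where 44.6% of all tested genes did. With the copies added 81 of 85 fell and 1 rose, where 39.4% of all tested genes fell and 14.2% rose. When the libraries were rescaled by median of ratios, the median of all genes moved to -0.02 and that of the set to -0.75, and 47 genes of the set fell and 3 rose. Under that scaling 51.9% of all calls were falls, against 74.2% without it. These are shares of the calls among all tested genes. The shares of all tested genes that fell or rose under it are not given here, so the 47 and 3 have no background beside them. The median of the set differed from that of all genes by -0.74 with the rescaling and by -0.76 without it.

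Other features of the libraries moved with genotype at this stage. Between 11736 and 12037 genes reached 1 FPKM in the KO 2-cell libraries and 14128 to 14561 in the WT ones. The 12 oocyte markers summed to 15889 to 22412 FPKM in KO and 5310.4 to 6855 FPKM in WT, and the 10 markers of the 2-cell embryo to 2127 to 3110.1 FPKM in KO and 1404 to 1947 FPKM in WT. Those 10 did not move together: 3 were called higher in KO and 2 lower, where 14.0% of all tested genes rose and 40.3% fell. Of 12 markers of blood, stroma and oviduct, 4 reached 1 FPKM in every KO and 4 in every WT 2-cell library. They summed to 28.4 to 42.9 FPKM in KO and 106 to 203 FPKM in WT, and 4 were listed at 0 in every KO and 3 in every WT 2-cell library. The 20 granulosa and cumulus markers summed to 11.2 to 15.8 FPKM in KO and 35.1 to 50.5 FPKM in WT. The part of these differences in the level of the set was not tested.

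Of the small subunit genes 29 of 31 tested fell in KO at 2-cell and 0 rose, with a median difference of -1.37, and with the copies added 31 of 32 fell. Rps3 had 6.83, 5.96 and 6.27 FPKM in KO and 28.7, 19.5 and 21.9 FPKM in WT (-1.71, SE 0.22, limma adjusted p = 0.00057). Rps6, the substrate of S6 kinase in mTOR signalling, had 6.65, 4.19 and 7.30 FPKM in KO and 26.2, 17.4 and 22.2 FPKM in WT (-1.71, SE 0.26). In Rps3 as in Rps6 every KO library lay below every WT library. Rpsa, which also serves as a laminin receptor, differed by -1.72 (SE 0.24). The largest difference of the set was that of Rps27rt, with 10.4, 7.21 and 8.14 FPKM in KO and 115, 71.4 and 97.2 FPKM in WT (-3.31, SE 0.24, limma adjusted p = 0.0002). Its parent Rps27, from which it differs too little for reads to be kept apart with certainty, stood at 0.911, 0.666 and 0.547 FPKM in KO and 3.86, 2.78 and 3.66 FPKM in WT. Summed over Rps27, Rps27rt and their other near-identical copies, without Rps27l, the level was 10.3 FPKM in KO and 107 FPKM in WT. The 2 small subunit genes that were not called were Rps12 (-0.21, SE 0.24) and Rps15a (-0.15, SE 0.23).

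Of the large subunit genes 31 of 41 tested fell and 0 rose, with a median difference of -1.03, and with the copies added 42 of 43 fell. Rpl38, which has been linked in mouse to the translation of Hox mRNAs, had 3.85, 1.43 and 2.21 FPKM in KO and 26.0, 14.7 and 21.7 FPKM in WT (-2.66, SE 0.32). Rpl24, which forms a bridge between the subunits, had 16.9, 7.65 and 7.53 FPKM in KO and 65.7, 50.2 and 66.8 FPKM in WT (-2.48, SE 0.31). Rpl3, a protein of the peptidyl transferase centre, differed by -1.09 (SE 0.25). Rpl5 and Rpl11, which with 5S rRNA can bind MDM2 and so stabilise p53, differed by -0.79 (SE 0.24) and -0.96 (SE 0.27). The calls of Rpl5 and Rpl11 were lost without single 2-cell libraries: WT replicate 1, KO replicate 2 or KO replicate 3 for both, and KO replicate 1 for Rpl5. Rpl15 stood at 6.98, 5.86 and 7.74 FPKM in KO and 4.56, 4.94 and 5.42 FPKM in WT (0.39, SE 0.21) and Rpl17 at 28.5, 34.8 and 19.6 FPKM in KO and 9.95, 17.5 and 18.9 FPKM in WT (0.81, SE 0.30), and neither was called. Both turned round with their copies added. Rpl15 with its 12 copies then averaged 49.1 ± 5.80 FPKM in KO and 162 ± 37.4 FPKM in WT (-1.68, SE 0.22, limma adjusted p = 0.00069), and Rpl17 averaged 126 ± 10.6 FPKM in KO and 204 ± 39.0 FPKM in WT (-0.68, SE 0.19, limma adjusted p = 0.017; SD, n = 3 each).

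**Figure D5:**
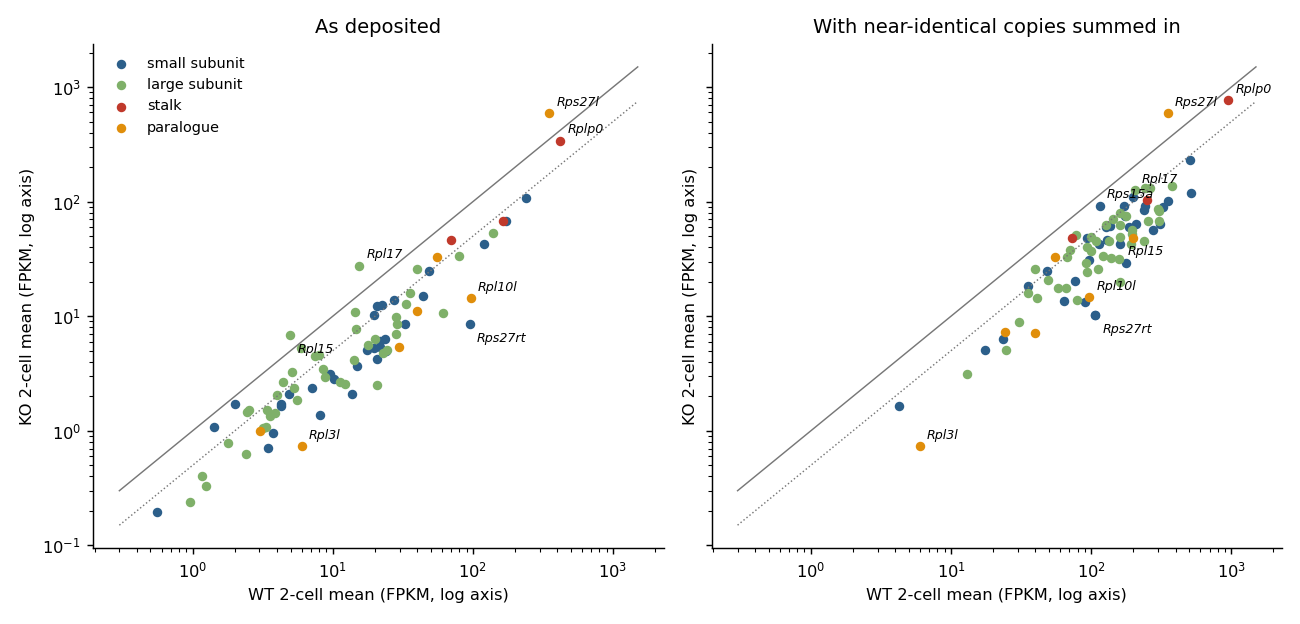
Mean level in KO against WT 2-cell embryos for each of the 85 genes, as deposited (left) and with the near-identical copies added (right), both axes logarithmic in FPKM. The solid line marks equal levels and the dotted line a KO level of 50% of WT; 61 genes lie below the dotted line on the left and 70 on the right, and Rps27l is the gene above the solid line in both.

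The 3 stalk genes did not move as one. Rplp0, which anchors the stalk to the large subunit, had 402, 269 and 352 FPKM in KO 2-cell embryos and 469, 433 and 356 FPKM in WT ones, so the groups overlapped (-0.31, SE 0.21, limma adjusted p = 0.24). Rplp1 had 73.2, 53.2 and 77.6 FPKM in KO and 187, 132 and 171 FPKM in WT (-1.25, SE 0.22, limma adjusted p = 0.0021). Rplp2 had 45.1, 44.5 and 48.6 FPKM in KO and 71.2, 68.3 and 68.6 FPKM in WT (-0.58, SE 0.17, limma adjusted p = 0.018). KO libraries lay below WT libraries without overlap in Rplp1 and Rplp2. The Rplp2 difference was -0.04 under median of ratios (limma adjusted p = 0.86), and its call was also lost without WT replicate 1, KO replicate 1 or KO replicate 2. With its copies Rplp0 averaged 766 FPKM in KO and 955 FPKM in WT, and its mean KO 2-cell level as deposited was 250% of its KO GV level, against 329% in WT.

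Of the 7 paralogues 6 fell in KO at 2-cell and 1 rose. Rpl10l had 18.3, 15.3 and 9.99 FPKM in KO 2-cell embryos and 106, 93.8 and 90.5 FPKM in WT ones (-2.69, SE 0.24, limma adjusted p = 0.00024). At PN5 it was listed at 0 in all 3 KO libraries and in WT replicates 1 and 3. Rpl3l, known as the form of RPL3 in striated muscle, was listed at 0 in every GV, MII and PN5 library of both genotypes. At 2-cell it had 1.62, 0.227 and 0.358 FPKM in KO and 8.97, 2.79 and 6.23 FPKM in WT (-1.99, SE 0.42, limma adjusted p = 0.0045). It passed the filter through its WT libraries, with 1 KO library at 1 FPKM or more, so the call follows in part from the filter. Rpl7l1 differed by -2.31 (SE 0.31), Rpl36al, a second gene for the RPL36A protein, by -1.76 (SE 0.21), Rpl22l1 by -0.97 (SE 0.26) and Rpl39l, the germ cell form of RPL39, by -0.70 (SE 0.24).

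Rps27l was the 1 gene of the set that was called higher in KO 2-cell embryos. It had 567, 705 and 517 FPKM in KO and 284, 323 and 447 FPKM in WT, so every KO library lay above every WT library (0.78, SE 0.22, limma adjusted p = 0.016). The adjusted p was 0.059 without WT replicate 1, 0.056 without WT replicate 2 and 0.053 without KO replicate 2, and the difference was 0.64, 0.73 and 0.65 in these. At PN5 it had 195, 197 and 193 FPKM in KO and 419, 281 and 201 FPKM in WT, so the order of the genotypes was the other way there. From PN5 to 2-cell it rose by 1.60 in KO (SE 0.13, limma adjusted p = 3e-05) and differed by 0.26 in WT (SE 0.32, limma adjusted p = 0.50).

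Ribosome-associated genes that the naming rule leaves out were examined at 2-cell as well. Fau, which encodes the ubiquitin-like fusion of RPS30, fell in KO (-1.24, SE 0.21, limma adjusted p = 0.0018), while Rack1, a scaffold on the small subunit, differed by -0.30 (SE 0.23, limma adjusted p = 0.31). Of 16 other mRNAs known for a TOP start, all of them tested, 7 fell and 1 rose, where 40.3% of all tested genes fell and 14.0% rose, with a median difference of -0.44, equal to that of all tested genes. The falls included Pabpc1, the cytoplasmic poly(A) binding protein (-2.06, SE 0.23) and Eif3e, an initiation factor subunit (-1.88, SE 0.23). Btf3, of the nascent chain complex, rose (2.08, SE 0.21). Of 16 regulators of TOP mRNAs 14 were tested, 5 fell and 1 rose, against the same shares of all tested genes, with a median difference of -0.45. Larp1, which binds the TOP tract, fell (-1.83, SE 0.28), as did Eif4ebp1, which blocks cap-dependent initiation when mTOR is off (-2.04, SE 0.28).

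Split by the TOP tract defined above, both classes were mostly lower in KO at 2-cell. There 23 of 29 tested genes with a tract fell in KO and 1 rose, with a median difference of -0.99. Of the 33 tested genes without a tract 29 fell and 0 rose, with a median of -1.34, and of the 20 without a window 16 fell, with a median of -1.16. In WT from GV to MII 25 of 28 with a tract and 30 of 30 without one fell. The difference between these classes was not tested.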

How the data were processed

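Per the labels' protocols, cDNA was made from 5 oocytes or embryos per library using SMART-Seq HT. The authors deposited FPKM per gene and library, and StringTie and the build GRCm38 are named in the submitters' processing notes; those notes name no aligner, annotation, version or filter. Of 55487 identifiers 55227 matched GENCODE M21. FPKM times length was a whole multiple (tolerance 0.02) of a library-specific unit in 98.8 to 99.2% of low values of genes with 1 transcript, which gave the depths. One fragment in a gene of 1 kb is worth 0.0814 to 0.131 FPKM, and levels near that rest on single fragments. No pair of libraries held identical values.

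Each of 13 comparisons (4 of genotype, 6 between stages and 3 interactions) was fitted over all genes with limma 3.58.1 in R 4.3.3 on log2(FPKM + 1), with trend and robust variance, for genes at 1 FPKM or more in 3 or more libraries of the fit. P-values were adjusted by Benjamini and Hochberg over all tested genes, with calls under 0.05. Differences are on the log2(FPKM + 1) scale, which understates changes of low genes. On simulated data with 67 genes changed 4-fold the fit recovered 94.0% at GV (11686 genes tested), 95.5% at MII (8963), 49.3% at PN5 (9611) and 64.2% at 2-cell (14717).

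Copies were found with BLAST+ 2.17.0 and their FPKM summed into the parent, an alternative added after the data were seen. Replicate numbers were not taken as pairs, since in no comparison did every same-numbered pair of deviations correlate above 0.1. The 85 genes, the lists and the named genes were chosen with earlier results of these data known. The named genes were the stalk genes, Rpsa, Rps3, Rps6, Rpl3, Rpl5, Rpl11 and the paralogues; in each genotype comparison all called members where there were 10 or fewer, otherwise the 5 largest changes in each direction, and those of smallest p up to 4 where fewer than 4 were called; and up to 4 per direction at or above 5 FPKM in each stage step and interaction. Other genes (Rps27, Rps15a, Rpl15 at 2-cell, Rps12, Rpl27, Rpl34, Rpl35a, Rpl36) were named after their values were seen. Rps4l of the fixed list has no entry, and some genes that the rule names are not reported here. Python 3.11.15, pandas 2.3.3, numpy 2.4.6 and matplotlib 3.10.9 made tables and figures.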

Additional observations from a re-analysis of the deposited data

Results flagged for a closer look

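The change from MII to PN5 differed between genotypes for 7 genes of the set by the interaction test, all with the lower change in KO. Of all tested genes 4.59% were called lower and 2.86% higher there. Among the 7, Rpl39l differed by -1.50, Rpl32 by -1.49, Rplp2 by -1.35 and Rps14 by -1.32 on the log2 scale. The 7 calls were lost with a pseudocount of 0.1, without the filter or in TPM. The change from PN5 to 2-cell differed for 41 genes, where 31.9% of all tested genes were called lower and 13.8% higher. Rpl17 differed by 2.26 and Rps27l by 1.33 toward a higher change in KO. Rps27rt differed by -3.61, Rpl10l by -2.56, Rpl38 by -2.47 and Rpl24 by -2.18 toward a lower one. The call of Rpl17 was lost with its copies added. Rps27 and Rpl27, among the 41, were tested only through WT 2-cell libraries and do not stand as support.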

How the results depend on the processing

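The counts of called genes of the set are given here under each setting that moved them past 1.5 times. Shares of all tested genes under these settings are not given in this section. At GV (0 called) fitting all 24 libraries together gave 1, and leaving out 1 library gave 0 to 2. At MII (0) TPM, removing a length trend, removing length and GC trends, and the joint fit of 24 libraries gave 1 each, and leaving out 1 library gave 0 to 14. At PN5 (4) a pseudocount of 0.1 gave 1; no filter, TPM, median of ratios, the replicate block and the block with the length trend removed gave 0; the joint fit gave 12, copies added gave 11, and leaving out 1 library gave 0 to 17. At 2-cell (69) leaving out 1 library gave 56 to 63. For WT from MII to PN5 (11) no filter gave 2, TPM 5, copies added 26, and leave-one-out 0 to 8. For KO from MII to PN5 (10) no filter gave 3 and leave-one-out 2 to 13. For the interaction from MII to PN5 (7) a pseudocount of 0.1, no filter, TPM, the length trend, the replicate block and the block with the length trend gave 0, copies added gave 17 and leave-one-out 0 to 22. For the interaction from PN5 to 2-cell (41) a pseudocount of 0.1 gave 21 and leave-one-out 32 to 47. Leave-one-out ran from 29 to 76 for WT from GV to MII, 43 to 79 for WT from PN5 to 2-cell, 32 to 78 for KO from GV to MII and 29 to 65 for KO from PN5 to 2-cell, where the filter of 3 libraries leaves fewer genes tested once a library of the high stage is gone. The interaction from GV to MII stayed at 0. With copies added Rpl17 and Rpl15 turned round in WT from PN5 to 2-cell, to 0.37 and 2.20. Of 1041 values of named genes under the alternatives 842 kept direction and call, 189 lost the call, 8 gained one and 2 reversed. The cause of these changes was not tested except where the filter sets it. As replicate numbers did not pair the samples, the block serves only as a setting; same-number correlations lay between -0.20 and 0.21 at GV and -0.17 and -0.01 at 2-cell. Most genes of the set did not reach 1 FPKM in enough libraries to be tested between genotypes at MII and PN5 as deposited. Differences in them were therefore not examined there, and more of them were tested with the copies added.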

Other observations

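Over the 85 genes, which share their libraries, the rank correlation of mean levels in KO with those in WT was 0.99 in GV oocytes, 0.95 in MII oocytes, 0.96 in PN5 zygotes and 0.92 in 2-cell embryos. Between 2-cell and PN5 levels it was 0.76 in KO and 0.62 in WT. The KO minus WT difference at 2-cell had rank correlations of 0.12 with exon length, -0.16 with GC content and 0.20 with the number of copies, over 82 tested genes.

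The small subunit sum at 2-cell was 34.8% of its GV value in KO and 122% in WT, the large subunit sum 23.4% in KO and 64.9% in WT, and the stalk sum 94.7% in KO and 171% in WT. Rplp0 supplied most of the stalk sum at 2-cell, with a mean of 341 of 455 FPKM in KO and 419 of 652 FPKM in WT. The difference between these classes was not tested.

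Rps15a-ps7, a processed pseudogene and the copy of Rps15a with the highest level, averaged 99.8 ± 31.5 FPKM in KO MII and 94.8 ± 37.4 in KO GV, and 61.8 ± 8.33 FPKM in WT MII and 72.7 ± 15.1 in WT GV (SD, n = 3 each).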
